A study of Homo sapiens with 8 samples.

Results

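The genes described here are 46 genes whose proteins deal with platinum damage to DNA, listed by symbol and matched to the probes of the array through their RefSeq accessions. They act in nucleotide excision repair, the Fanconi anemia pathway, homologous recombination, the processing and signaling of breaks, mismatch repair and translesion synthesis. Of the 46 genes, 45 had a probe that passed the filter on dim signal and were tested, among 15455 genes tested in all, and BRCA2 was not tested.

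RNA was taken from OAW42-R, a cisplatin-resistant human ovarian carcinoma line derived from OAW42 cells by repeated exposure to cisplatin. Cells received a nontargeting control siRNA pool (sictrl, 4 arrays) or siRNAs number 2 and number 4 against the long noncoding RNA UCA1 (siUCA1, 4 arrays), each at 20 nM in the same medium, and the labels name no platinum treatment for either condition. The labels place RNA extraction at 24 h after transfection whereas the study's methods give a longer interval, so the time is uncertain. Replicates are named A1, A2, A3 and M2 in both conditions, and they come from separate experiments with a single cell line.

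Cisplatin binds purine bases and links neighboring bases of 1 strand or, less often, bases of opposite strands. Nucleotide excision repair cuts a short stretch around the lesion out of the strand and fills the gap. Links between strands are handled by the Fanconi proteins, which load a ubiquitinated FANCD2-FANCI pair onto the DNA and lead to nuclease cuts, and the resulting breaks are mended by homologous recombination with the BRCA proteins and their partners. Mismatch repair proteins also recognize platinum lesions, and translesion polymerases copy past them. The activity of these pathways is well known to bear on how ovarian cancers respond to platinum, and the comparison here asks whether their transcripts differ after UCA1 is depleted in resistant cells.

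Intensities were read on a log2 scale relative to the 75th percentile of each array, a level below called the log2 level, and a log2 fold change is the siUCA1 mean minus the sictrl mean. Called genes have an adjusted p under 0.05 from limma over all 15455 genes. The siRNA target checked the labels, since UCA1 was at 8.20 ± 0.49 in sictrl and 3.16 ± 0.47 in siUCA1 (SD, n = 4), which is 97.0% lower (adjusted p = 0.000122). Between 20858 and 24039 spots were well above background on an array and none was saturated. Both sictrl A3 and siUCA1 A1 stood apart from the rest, with a fitted surface trend of 0.321 and 0.287 against 0.0737 to 0.0943 on the other 6 arrays. They were the arrays in column 2 of the slide, and results are therefore also given without them. Epithelial markers were measured on all arrays (EPCAM, KRT8, KRT18, KRT19, CDH1 and PAX8), with CDH1 called lower in siUCA1 (-0.81, adjusted p = 0.0149) and EPCAM higher on all siUCA1 arrays but not called (0.50, adjusted p = 0.0675), whereas WT1 and MUC16 did not rise above background on any array. Of 9 markers of leukocytes, endothelium and fibroblasts, 7 (PTPRC, CD3E, PECAM1, COL1A1, COL3A1, DCN and LUM) failed the filter on dim signal and 2 were tested, VWF (log2 fold change -0.076, not called) and CD14, called higher (0.70, adjusted p = 0.0478).

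After siUCA1, a minority of the platinum-damage repair genes passed the test, by less than 1 on the log2 scale each. Of the 45 genes tested, 7 (15.6%) were called, 6 lower (ERCC2, FANCC, FANCE, RAD51B, XRCC2 and PMS2) and 1 higher (ERCC4). Over all genes tested, 11.6% were called, 5.85% lower and 5.72% higher, so that the total of the repair genes lay near the background while 13.3% of them were called lower and 2.22% higher. The lower count includes RAD51B, whose probe passed the filter only through sictrl, where it was high. With signal above background required on all 8 arrays, 6 of 44 repair genes were called, 5 lower and 1 higher (13.6%, against 12.3% of all genes). In the main fit no repair gene changed by 1 or more on the log2 scale. The log2 fold changes of the repair genes ran from -0.87 to 0.69 with a median of -0.029, against 0.030 for all genes. In such bulk RNA, less RNA per cell and fewer cells that express a gene cannot be told apart. Their median absolute log2 fold change was 0.203, and that of all genes 0.204. The 4 values of sictrl and the 4 of siUCA1 did not overlap for 13 repair genes (28.9%, 9 lower and 4 higher in siUCA1), against 20.8% of all genes. Unadjusted p lay under 0.05 for 14 of the 45 genes (31.1%) and for 27.6% of all genes.

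These counts depend on single arrays. Without siUCA1 A2, siUCA1 A3 or sictrl M2 only 1 repair gene was called, without sictrl A2 none, and without siUCA1 M2 or sictrl A1 there were 3. The share of all genes called in these fits was between 4.94% and 7.12%, also below the 11.6% with all arrays. Without siUCA1 A1 the count was 9 (20.0%, against 15.0% of all genes), and without both arrays that stood apart it was 11 (24.4%, 8 lower and 3 higher), including all 7, while the share of all genes called rose to 25.6%. Calls gained without these arrays therefore come with a general gain in calls. Scaling each array to its median in place of the 75th percentile left RAD51B as the only call. This scaling lowered the share of all calls that were higher in siUCA1 from 49.4% to 21.3%. With the slide column added to the fit as a block, RAD51B and ERCC4 were called (4.44%, against 8.26% of all genes). With the replicate name as a block, 4 repair genes were called, all lower (8.89%, against 11.2%), and ERCC4, FANCC and PMS2 were not.

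**Figure D1:**
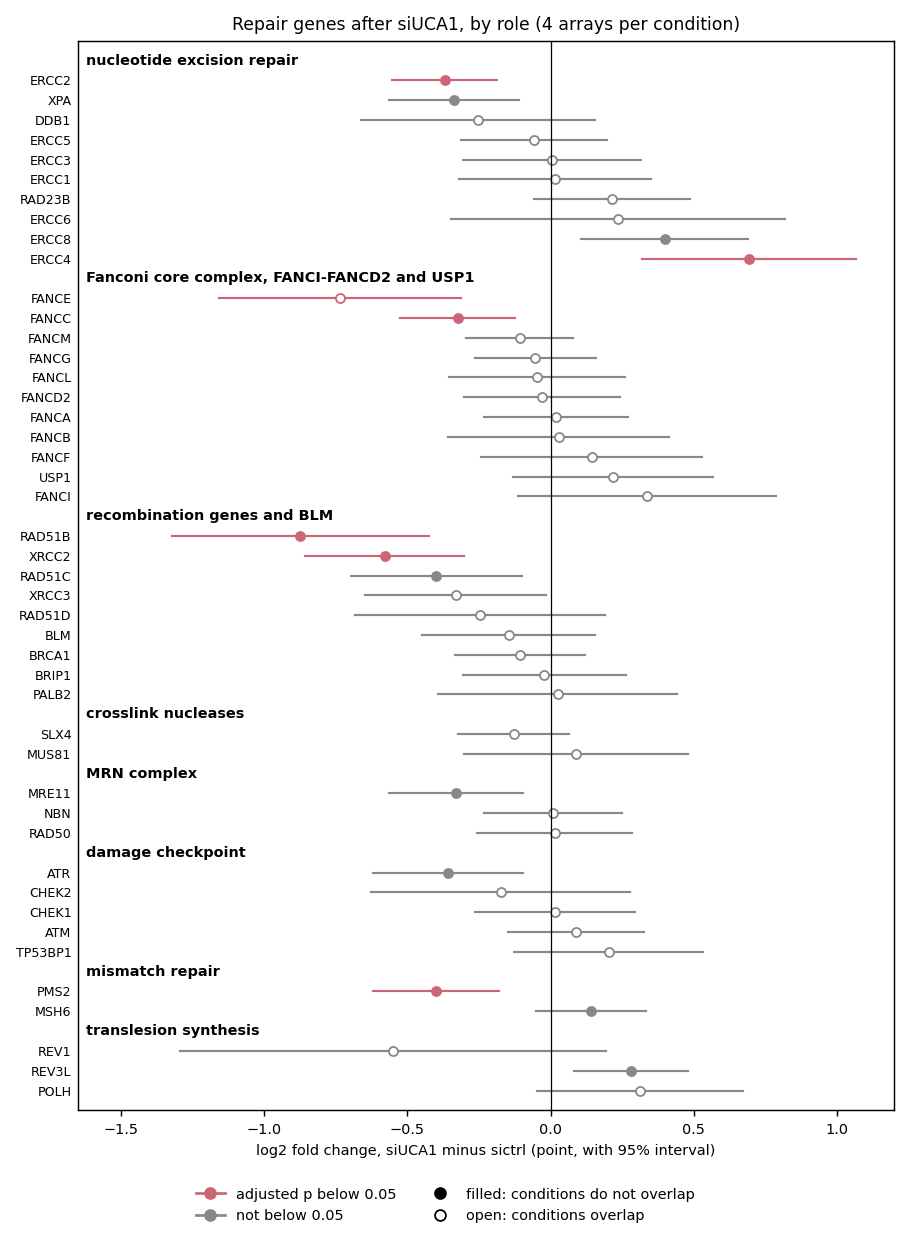
Log2 fold change (siUCA1 minus sictrl, horizontal axis) with its 95% interval from limma for the 45 repair genes tested, sorted within their roles. Red marks an adjusted p below 0.05 and filled points mark genes whose 4 sictrl and 4 siUCA1 arrays did not overlap. The called genes lie between -0.87 (RAD51B) and 0.69 (ERCC4), and most intervals cross 0.

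The RefSeq table (GRCh38.p14) held a window listed as a promoter for all 7 called genes and for 43 of the 45 tested. The 250 bases before the start are shown for 4 called genes, to let the only higher gene (ERCC4) be read beside 3 lower ones whose windows differ in motif content. Capitals mark E2F-type octamers (TTTCCCGC, TTTCGCGC, TTTGCCGC or TTTGGCGC), the cell cycle homology sequence TTTGAA and the CCAAT box, each on either strand, and none of the marked stretches overlap. The windows lie at chr16:13919904-13920153, plus strand (ERCC4), chr19:45370574-45370823, minus strand (ERCC2), chr9:95317710-95317959, minus strand (FANCC, the farther upstream of its 2 windows) and chr7:6009050-6009299, minus strand (PMS2, the nearer of 2 overlapping windows).
ERCC4: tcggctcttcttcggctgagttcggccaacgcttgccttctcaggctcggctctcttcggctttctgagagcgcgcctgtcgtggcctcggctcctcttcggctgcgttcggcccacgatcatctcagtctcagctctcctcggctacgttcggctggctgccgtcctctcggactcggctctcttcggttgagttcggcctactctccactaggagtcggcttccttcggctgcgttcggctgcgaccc
ERCC2: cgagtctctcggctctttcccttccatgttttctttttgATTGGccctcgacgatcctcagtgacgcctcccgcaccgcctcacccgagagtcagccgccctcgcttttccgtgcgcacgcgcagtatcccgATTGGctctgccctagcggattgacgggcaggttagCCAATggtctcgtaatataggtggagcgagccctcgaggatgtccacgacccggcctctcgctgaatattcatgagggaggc
FANCC: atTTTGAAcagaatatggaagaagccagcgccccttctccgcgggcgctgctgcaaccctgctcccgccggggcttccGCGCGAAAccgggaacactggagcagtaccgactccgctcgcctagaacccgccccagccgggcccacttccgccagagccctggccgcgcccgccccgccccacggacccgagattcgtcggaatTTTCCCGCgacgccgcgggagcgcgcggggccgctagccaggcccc
PMS2: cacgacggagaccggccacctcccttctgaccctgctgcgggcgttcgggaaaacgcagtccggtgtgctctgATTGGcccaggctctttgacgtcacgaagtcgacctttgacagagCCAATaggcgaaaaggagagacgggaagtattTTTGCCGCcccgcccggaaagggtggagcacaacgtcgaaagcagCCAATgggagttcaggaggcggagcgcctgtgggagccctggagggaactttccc

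The ERCC4 stretch held none of these motifs, ERCC2 held 3 CCAAT boxes, FANCC 2 E2F-type octamers and 1 TTTGAA, and PMS2 1 octamer and 3 CCAAT boxes. Over the whole window of 300 bases, which includes 50 after the start, XRCC2 also held an octamer. The windows listed for FANCE and RAD51B and the other FANCC window held none of the motifs. Whether the RAD51B windows cover the main promoter of the gene was not tested. An octamer was found in 3.31% of all 35116 promoter windows and in 8 of the 62 windows (12.9%) of tested repair genes, TTTGAA in 15.2% and 9.68%, and the CCAAT box in 34.6% and 40.3%. These shares count windows, so that a match in overlapping windows of a gene, as the PMS2 octamer, counts more than once. The matches describe letters only, and no binding was measured.

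Among the 10 genes of nucleotide excision repair, ERCC2 fell and ERCC4 rose, with a median log2 fold change of 0.011 over the group. ERCC2 encodes XPD, the helicase of the transcription factor TFIIH that opens the DNA around a lesion. Its log2 level was at 0.92, 0.97, 0.91 and 0.97 on the sictrl arrays A1, A2, A3 and M2 and at 0.52, 0.59, 0.65 and 0.53 on the siUCA1 arrays of the same names. The siUCA1 values lay together below the narrow sictrl range, and ERCC2 had a fold change on the log2 scale of -0.37 ± 0.081 (standard error; adjusted p = 0.0224). A second ERCC2 probe had a log2 fold change of -0.30 that was not called (adjusted p = 0.296 over the 19046 kept probes, of which 11.5% were called). With the mean of its kept probes, ERCC2 was not called.

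ERCC4 encodes XPF, the nuclease subunit that cuts the damaged strand together with ERCC1 and also unhooks crosslinks. Its probe was dim but well above background on every array, at -2.17, -2.51, -1.92 and -1.78 on the sictrl arrays A1, A2, A3 and M2 and at -1.40, -1.27, -1.32 and -1.61 on the siUCA1 arrays of the same names. Every siUCA1 value was above the highest sictrl value, and the log2 fold change was 0.69 (standard error 0.16, adjusted p = 0.0304), with sictrl spread over a wider range than siUCA1. The second ERCC4 probe had 0.58 (adjusted p = 0.0747), and 1 of its 4 sictrl values was not well above background. After normexp background correction, which added an offset of 50, the log2 fold change of ERCC4 was 0.26 and was not called. Such an offset makes the log2 fold changes of dim probes smaller. With the replicate name as a block, ERCC4 was not called either.

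ERCC1, the partner of XPF and a widely studied marker of platinum response, was at 3.54, 3.74, 4.09 and 3.59 in sictrl and at 3.49, 3.90, 3.85 and 3.78 in siUCA1 (arrays in the order A1, A2, A3 and M2, as in all pairs of values that follow). The conditions overlapped, with a log2 fold change of 0.016 (95% interval -0.32 to 0.35, adjusted p = 0.959). Without the arrays that stood apart it was 0.22 (adjusted p = 0.105), and with normexp -0.22 (adjusted p = 0.794).

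XPA, which verifies the lesion and holds the incision complex together, was at 0.66, 0.88, 0.86 and 0.78 in sictrl and at 0.41, 0.52, 0.59 and 0.31 in siUCA1. Its conditions did not overlap, yet the log2 fold change of -0.34 did not pass (adjusted p = 0.063). ERCC8 (CSA), which takes part in repair of transcribed strands, was at -0.78, -1.08, -1.14 and -0.74 in sictrl and at -0.35, -0.56, -0.52 and -0.71 in siUCA1. Here siUCA1 lay higher on all arrays, with a log2 fold change of 0.40 that did not pass either (adjusted p = 0.0805). The other 5 genes of the group, ERCC3 (XPB), ERCC5 (XPG), ERCC6 (CSB), DDB1 and RAD23B, had overlapping conditions and log2 fold changes from -0.25 (DDB1) to 0.23 (ERCC6). The 2 kept RAD23B probes differed in sign, at 0.21 and -0.090.

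Of the 11 genes of the Fanconi core complex and its substrates, 2 fell (18.2%, against 11.6% of all genes called and 5.85% called lower), FANCE and FANCC. FANCE, which bridges the core complex to FANCD2, was at 4.12, 4.09, 3.55 and 4.15 on the sictrl arrays A1, A2, A3 and M2 and at 3.69, 3.11, 3.09 and 3.09 on the siUCA1 arrays of the same names. The conditions overlapped because sictrl A3 lay below siUCA1 A1, and these are the arrays that stood apart. The log2 fold change was -0.73 (standard error 0.19, adjusted p = 0.038). Without both arrays it was -1.03 (adjusted p = 0.000611), in a fit that called 25.6% of all genes. FANCE was not called with median scaling, with normexp, without the detection filter or with the slide column as a block.

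FANCC, which binds FANCE within the core, was at 1.17, 1.02, 0.97 and 1.19 on the sictrl arrays A1, A2, A3 and M2 and at 0.76, 0.77, 0.75 and 0.77 on the siUCA1 arrays of the same names. The siUCA1 values were nearly alike, and all lay under the lowest sictrl value, with a log2 fold change of -0.32 (adjusted p = 0.0478, standard error 0.089). FANCC was the call nearest to the threshold and held in 1 of the 8 fits that left out an array, the one without sictrl A3. With the replicate name as a block it was not called.

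FANCD2, the protein that the core complex ubiquitinates, was at 2.38, 2.22, 2.44 and 2.38 in sictrl and at 2.46, 2.22, 2.53 and 2.09 in siUCA1. Its log2 fold change was -0.029 (95% interval -0.30 to 0.24, adjusted p = 0.907), within the spread between arrays. Its partner FANCI had 0.34 (95% interval -0.11 to 0.79, adjusted p = 0.312), and the deubiquitinase USP1 0.22 (adjusted p = 0.401). For FANCA, FANCB, FANCF, FANCG, FANCL and FANCM the conditions overlapped, with log2 fold changes from -0.11 (FANCM) to 0.14 (FANCF).

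The group of recombination genes (BRCA1, PALB2, BRIP1, RAD51B, RAD51C, RAD51D, XRCC2, XRCC3 and BLM) had a median of -0.25 over 9 genes tested, with 8 estimates below 0, against 7086 of all 15455 genes. RAD51B and XRCC2 were called, both lower (22.2% of the 9, against 11.6% of all genes called and 5.85% called lower), though RAD51B passed the filter only through sictrl, where it was high, and the conditions did not overlap for 3 genes (33.3%, against 20.8%). Both belong to the complex of RAD51B, RAD51C, RAD51D and XRCC2, which acts in homologous recombination.

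RAD51B was at -1.57, -1.08, -1.0 and -1.18 on the sictrl arrays A1, A2, A3 and M2 and at -2.48, -1.76, -2.30 and -1.79 on the siUCA1 arrays of the same names. Every siUCA1 value was under the lowest sictrl value, with the widest spread in siUCA1, where 1 of 4 values was not well above background. The log2 fold change of -0.87 (adjusted p = 0.0254, standard error 0.20) rests on a probe that passed the filter through sictrl, the condition where it was high. When signal above background was required on all 8 arrays, RAD51B was not tested, and 6 of 44 repair genes were called (13.6%, against 12.3% of all genes in that fit), 5 lower and 1 higher. With normexp and its offset, the log2 fold change of RAD51B was -0.24 (adjusted p = 0.499). The part of the offset in this smaller size was not tested.

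XRCC2 was at 0.73, 0.68, 0.66 and 0.99 on the sictrl arrays A1, A2, A3 and M2 and at 0.40, 0.075, 0.016 and 0.26 on the siUCA1 arrays of the same names. The conditions did not overlap, and the log2 fold change of -0.58 ± 0.12 (standard error) had the lowest adjusted p of the 45 genes (0.0197). RAD51C, the subunit shared with the XRCC3 complex, was at 4.23, 4.23, 4.61 and 4.20 in sictrl and at 3.66, 4.02, 4.02 and 3.98 in siUCA1. It lay lower on all siUCA1 arrays but did not pass, with a log2 fold change of -0.40 (adjusted p = 0.0864) and -0.22 without the arrays that stood apart. RAD51D had -0.25 (adjusted p = 0.452) and XRCC3 -0.33 (adjusted p = 0.163), with overlapping conditions.

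BRCA1, which directs breaks to recombination, was at 3.07, 2.85, 2.77 and 2.88 in sictrl and at 2.90, 2.71, 2.83 and 2.71 in siUCA1. The conditions overlapped, and the log2 fold change of -0.11 had a 95% interval of -0.33 to 0.12 (adjusted p = 0.541). BRCA2, a central protein of homologous recombination, had a dim probe that failed the background criterion on 1 array of each condition and was not tested. Its log2 level was at -2.01, -2.21, -2.47 and -2.12 in sictrl and at -3.53, -1.76, -2.41 and -2.08 in siUCA1, with siUCA1 A1 lowest and the rest overlapping. Without the filter on dim signal its log2 fold change was -0.24 (standard error 0.36, adjusted p = 0.890). PALB2, BRIP1 and BLM had log2 fold changes from -0.15 (BLM) to 0.024 (PALB2).

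**Figure D2:**
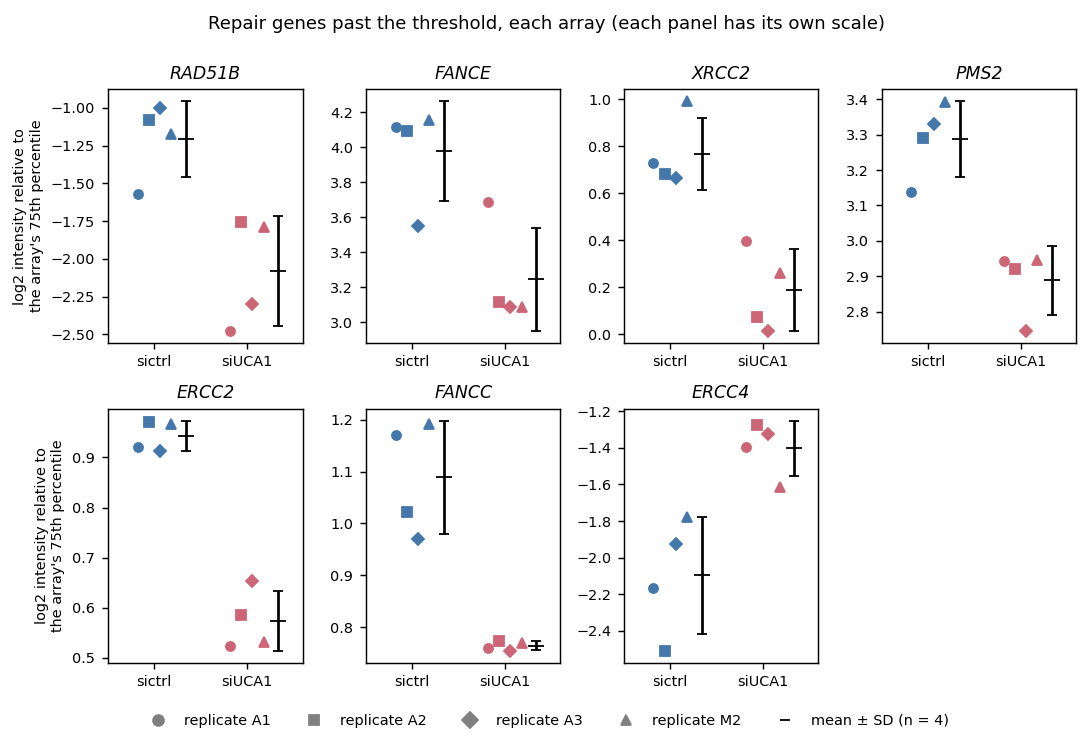
Log2 level (intensity relative to the 75th percentile of its array, vertical axis, a separate scale in each panel) of the 7 called repair genes on every array, with symbols for the replicate names and black bars for mean ± SD (n = 4). FANCE is the gene whose conditions overlap, at 3.55 on sictrl A3 and 3.69 on siUCA1 A1, and ERCC4 is the gene that is higher in siUCA1.

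None of the 2 crosslink nuclease genes and 3 MRN genes was called. SLX4, the scaffold for nucleases that unhook crosslinks, had a log2 fold change of -0.13 and MUS81 0.089. MRE11, the nuclease of the complex that first binds a break, was at 1.78, 1.68, 1.89 and 1.80 in sictrl and at 1.62, 1.38, 1.53 and 1.30 in siUCA1. Its conditions did not overlap, with a log2 fold change of -0.33 (adjusted p = 0.0733), and it was called lower without the arrays that stood apart (-0.35, adjusted p = 0.0326), where 25.6% of all genes were called. Its partners RAD50 and NBN had log2 fold changes of 0.015 and 0.0082, with 95% intervals of -0.26 to 0.28 and -0.23 to 0.25.

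None of the 5 checkpoint genes was called. ATR, the kinase that responds to stalled replication forks, was at 2.75, 2.79, 2.68 and 2.91 in sictrl and at 2.15, 2.56, 2.48 and 2.52 in siUCA1, lowest on siUCA1 A1. The conditions did not overlap, and the log2 fold change was -0.36 (adjusted p = 0.0819). A second ATR probe gave -0.37 (adjusted p = 0.0920 over the kept probes) and did not overlap either. With the mean of its kept probes, ATR was called lower, beside 11.7% of all genes. Without the arrays that stood apart, ATR was called at -0.30 (adjusted p = 0.0356), beside 25.6% of all genes. ATM, the kinase that responds to breaks, was at -0.37, -0.30, -0.10 and -0.074 in sictrl and at -0.097, -0.26, -0.028 and -0.099 in siUCA1. Its conditions overlapped, with a log2 fold change of 0.088 (95% interval -0.15 to 0.33, adjusted p = 0.638). CHEK1, CHEK2 and TP53BP1 had 0.015, -0.17 and 0.20 with overlapping conditions. CHEK2 has near-identical copies elsewhere in the genome, so its probe is uncertain.

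Of the 2 mismatch repair genes, PMS2, which cuts the strand to be replaced, fell. Its brightest probe was at 3.14, 3.29, 3.33 and 3.39 on the sictrl arrays A1, A2, A3 and M2 and at 2.94, 2.92, 2.74 and 2.95 on the siUCA1 arrays of the same names. The conditions did not overlap, with a log2 fold change of -0.40 (adjusted p = 0.0325, standard error 0.097). However, 4 further PMS2 probes had log2 fold changes of -0.31, -0.13, -0.10 and 0.082, and none of them was called. PMS2 was not called with the mean of its kept probes, nor with the replicate name as a block. The gene has near-identical pseudogene copies, and which transcripts each probe binds was not tested. MSH6, which takes part in recognizing the mismatch, was at 5.82, 5.87, 5.70 and 5.81 in sictrl and at 5.94, 6.01, 5.93 and 5.89 in siUCA1. It lay higher on all siUCA1 arrays by a small amount, 0.14, and did not pass (adjusted p = 0.322).

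The 3 translesion synthesis genes did not pass. REV3L, the catalytic subunit of polymerase zeta, was at 1.93, 1.87, 1.92 and 1.99 in sictrl and at 2.09, 2.27, 2.17 and 2.30 in siUCA1. All siUCA1 arrays lay higher, with a log2 fold change of 0.28 (adjusted p = 0.0749). POLH, the polymerase that copies past platinum adducts, had 0.31 (adjusted p = 0.24) with overlapping conditions. REV1, the scaffold of these polymerases, had -0.55, a wide 95% interval of -1.29 to 0.20 and an adjusted p of 0.319. Without the arrays that stood apart REV3L (0.32, adjusted p = 0.0284) and POLH (0.44, adjusted p = 0.0123) were called higher, in the fit that called 25.6% of all genes.

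**Figure D3:**
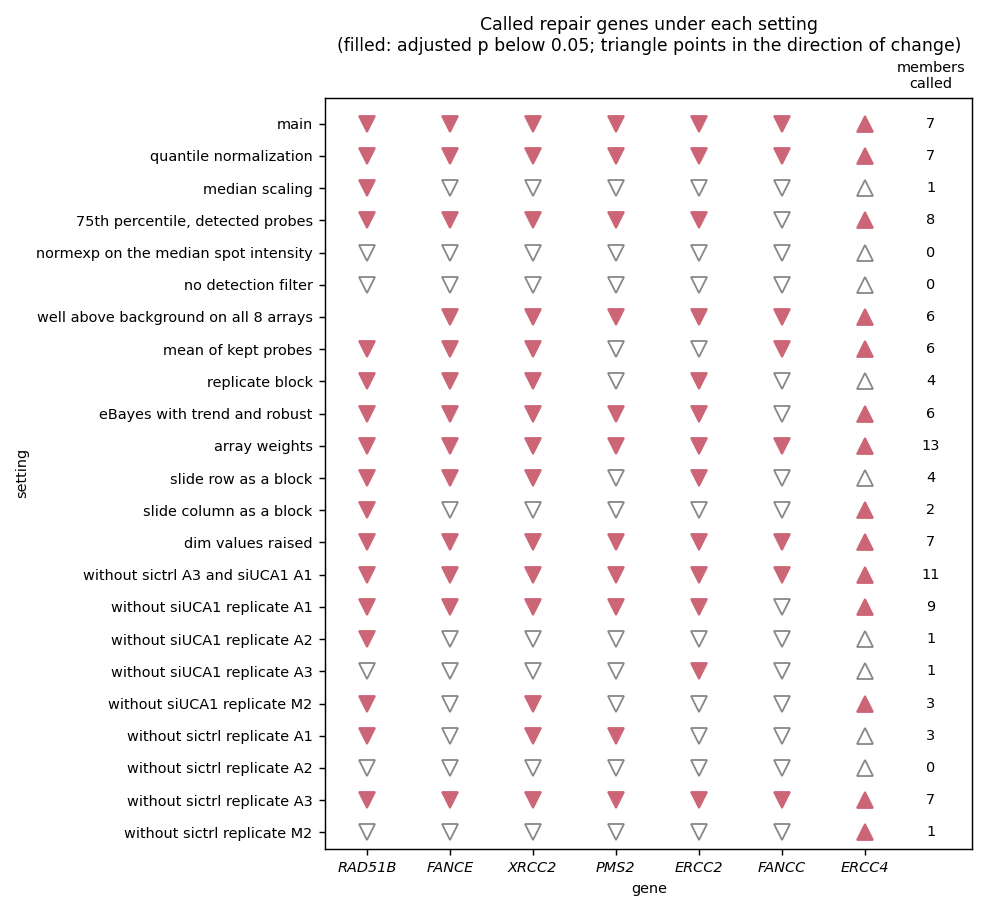
Call of each of the 7 genes (horizontal axis) under the main setting and 22 alternatives (vertical axis). A filled triangle marks an adjusted p below 0.05, its direction that of the change, and an empty place a gene that was not tested. The right column gives the number of repair genes called, from 0 to 13. Triangles keep their direction in every column.

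With 1 array left out in turn, ERCC4 and XRCC2 were called in 4 of 8 fits, ERCC2 and PMS2 in 3, FANCE in 2 and FANCC in 1. RAD51B was called in 5, but its probe passed the filter only through sictrl, where it was high. The direction of each was the same in all of these fits.

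A wider list of 111 repair genes of the same pathways, of which 101 were tested, held 7 called genes (6.93%, below the 11.6% of all genes), all of them lower in siUCA1, with a median log2 fold change of -0.022. Without the arrays that stood apart, in the fit that called 25.6% of all genes, 18 of the 101 were called, 13 lower and 5 higher. The conditions did not overlap for 18 of the 101 (17.8%, against 20.8% of all genes). In the main fit this list held changes beyond 1 on the log2 scale, which the 45 genes did not.

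UBE2N (UBC13), the enzyme that builds lysine 63 ubiquitin chains at breaks and on PCNA, was at -0.26, -0.51, -0.44 and -0.29 in sictrl and at -1.96, -4.20, -3.05 and -2.80 in siUCA1. It fell by 2.63 (standard error 0.39, adjusted p = 0.00576), as fitted to the measured values. The probe passed the filter through sictrl, the condition where it was high, and exceeded background clearly on 1 of 4 siUCA1 arrays, so that the exact size is not settled, and raising dim values to the detection floor of their array gave a log2 fold change of -2.11. With normexp and its offset, the log2 fold change of UBE2N was -0.99 and still called (adjusted p = 0.0103). The part of the offset in this smaller size was not tested.

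RPA1, the largest subunit of the protein that coats single-stranded DNA in all of these pathways, was at 4.32, 4.48, 4.59 and 4.41 in sictrl and at 3.60, 2.79, 3.07 and 2.84 in siUCA1. Every siUCA1 value was under the lowest sictrl value, and RPA1 fell by 1.37 (standard error 0.18, adjusted p = 0.00361). A second, dim RPA1 probe was also lower, but it failed the background criterion on every siUCA1 array. It passed the filter only through sictrl, where it was high, so that the size of its change is not settled.

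CUL4A, the scaffold of the ubiquitin ligases that contain DDB1, was at 2.84, 2.82, 2.85 and 2.76 in sictrl and at 2.41, 1.92, 1.99 and 1.92 in siUCA1; the log2 difference was -0.76 (adjusted p = 0.00791). Its second probe had -0.56 (adjusted p = 0.0918). H2AX, the histone phosphorylated next to breaks, was at 6.18, 6.15, 6.10 and 5.98 in sictrl and at 5.77, 5.36, 5.28 and 5.25 in siUCA1; the log2 difference was -0.68 (adjusted p = 0.0138). For both genes the conditions did not overlap, and siUCA1 A1 was the siUCA1 array nearest to sictrl.

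UVSSA, which brings TFIIH to stalled RNA polymerase, was at 1.11, 1.15, 1.54 and 1.25 in sictrl and at 0.97, 0.54, 0.54 and 0.52 in siUCA1; the log2 difference was -0.62 (adjusted p = 0.0263). FAAP100, a partner of FANCB and FANCL in the Fanconi core, was at 3.57, 3.52, 3.50 and 3.35 in sictrl and at 3.22, 2.80, 3.01 and 2.81 in siUCA1; the log2 difference was -0.52 (adjusted p = 0.0259). SLF2, which links RAD18 to the SMC5-SMC6 complex, was at -0.49, -0.41, -0.27 and -0.46 in sictrl and at -0.78, -0.72, -0.76 and -0.98 in siUCA1; the log2 difference was -0.40 (adjusted p = 0.0328), while its second probe had -0.17. In all 3 the siUCA1 values lay below the sictrl values, but with 1 array left out UVSSA and FAAP100 were called in 3 of 8 fits and SLF2 in 2, whereas RPA1, CUL4A and H2AX were called in 8.

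**Figure D4:**
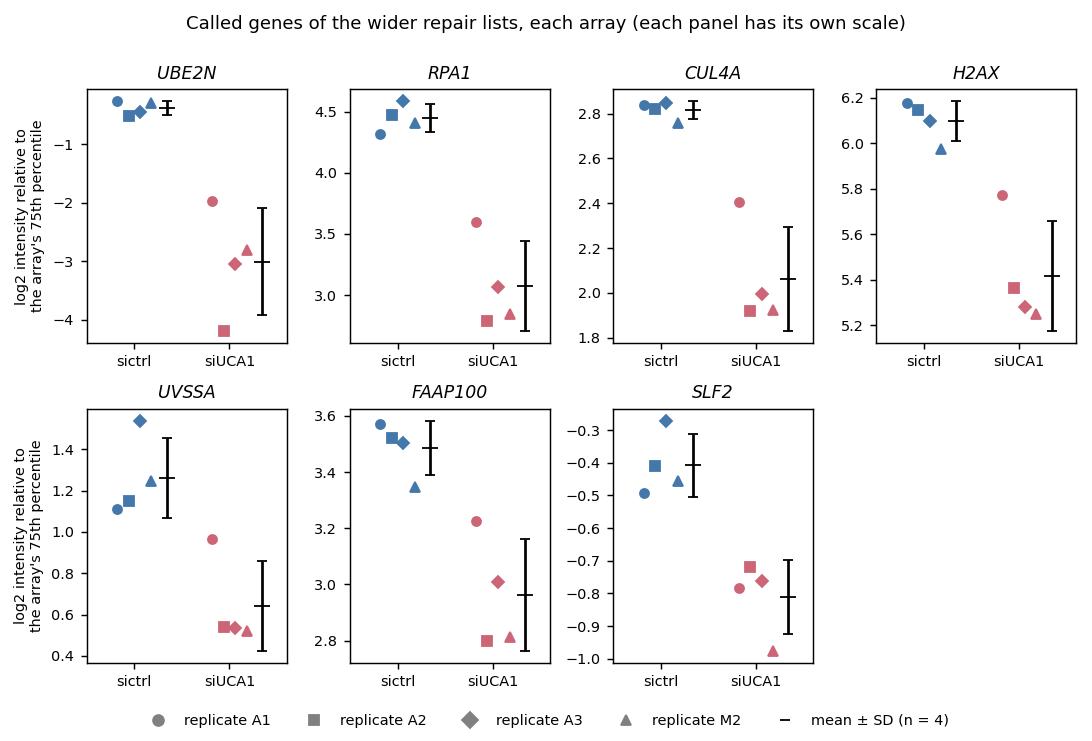
Log2 level (intensity relative to the 75th percentile of its array, vertical axis, a separate scale in each panel) of the 7 called genes of the wider repair lists on every array, with symbols for the replicate names and black bars for mean ± SD (n = 4). The conditions do not overlap in any panel, and for UBE2N 3 of the 4 siUCA1 values were not well above background.

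Many repair genes are transcribed with S phase, so 20 genes of S phase and mitosis were read beside them. Of the 19 tested, 2 were called (10.5%, against 11.6% of all genes), RRM2 lower (-0.52) and CCNE2 higher (0.35), and the log2 fold changes had a median of -0.056. MKI67 was at 3.62 ± 0.028 in sictrl and 3.60 ± 0.29 in siUCA1, and E2F1 at 3.26 ± 0.14 and 3.13 ± 0.096 (SD, n = 4 each). Without the arrays that stood apart, 5 of the 19 were called (1 higher, 4 lower), in a fit that called 25.6% of all genes, and the median was -0.17. Their part in the results for repair genes was not tested.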

How the data were processed

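Total RNA of sictrl and siUCA1 OAW42-R cells was hybridized to 8 one-color Agilent arrays, 4 per condition. The authors deposited Feature Extraction 10.7.3.1 output, in which the processed signal of a spot is an intensity with background removed, not normalized between arrays. Their value table held the same numbers. Log2 intensity minus each array's 75th percentile was computed, control and outlier spots were left out, and a probe was kept if well above background on all 4 arrays of a condition. Each gene took its brightest kept probe (19046 probes, 15455 genes, 11995 with a RefSeq symbol of GRCh38.p14; the array header names another build, and coordinates here belong only to RefSeq promoters). Conditions were compared with limma 3.58.1 in R 4.3.3, with Benjamini-Hochberg adjustment over all genes and no covariate. Intervals are 95% intervals of the moderated test. The procedure was tested on simulated data. Figures used matplotlib 3.10.9 in Python 3.11.15.

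The genes and lists were chosen with earlier results of these data known. Genes given with values on every array are those called, those whose conditions do not overlap, and ERCC1, XPA, BRCA1, BRCA2, FANCD2, ATM and ATR. Of the wider lists the called genes are named. POLH was named after its values were seen. Tried were 14 alternatives in processing and 8 fits leaving out 1 array.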

Additional observations from a re-analysis of the deposited data

Results flagged for a closer look

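For 52 sets of 4 arrays, the gap between the farthest array and its nearest neighbor was divided by the range of the set. Of these, 7 sets (13.5%) were above Dixon's 95% critical value for 4 samples. The sets belong to chosen genes and share the same arrays, so no chance rate is set beside this share. The distant array was siUCA1 A1 in 4 of them, sictrl A3 in 2 and siUCA1 A3 in 1.

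FANCE on sictrl A3 was at 3.55, and the rest of sictrl lay between 4.09 and 4.15 (gap over range 0.898), and at 3.69 on siUCA1 A1 against 3.09 to 3.11 (0.955). RAD51C was at 4.61 on sictrl A3 against 4.20 to 4.23 (0.921), and at 3.66 on siUCA1 A1 against 3.98 to 4.02 (0.895). For FANCE these arrays lay toward the other condition and for RAD51C away from it. CUL4A was at 2.41 on siUCA1 A1 against 1.92 to 1.99 (0.847), and UVSSA at 0.97 there against 0.52 to 0.54 (0.952). PMS2 was at 2.74 on siUCA1 A3 against 2.92 to 2.95 (0.864).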

How the results depend on the processing

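The count of called repair genes was 7 of 45 and ran from 0 to 13 over 22 alternatives. More were called lower than higher in 17 of these, but the called share was above that of all genes in only 10. In what follows, the count is that of called repair genes. It was 1 with median scaling (2.22%, against 3.46% or 535 of all genes). With normexp on the median spot intensity and its offset of 50 it was 0 (2.46% or 380 of all genes). Without a detection filter it was 0 of 46 (76 of 47753 genes, 0.159%). It was 13 with array weights (28.9%, against 31.4% or 4848) and 11 without sictrl A3 and siUCA1 A1 (24.4%, against 25.6% or 3957). It was 4 with the slide row as a block (8.89%, against 8.22% or 1270) and 2 with the slide column (4.44%, against 8.26% or 1276). With the mean of the kept probes of each gene it was 6 (13.3%, against 11.7%). With 1 array left out it ran from 0 to 9, and the count of all genes from 764 to 2319. With the replicate name as a replicate block, 4 repair genes (8.89%) were called (ERCC2, FANCE, RAD51B and XRCC2) beside 11.2% of all genes, and ERCC4, FANCC, PMS2 and UVSSA were not. Arrays of the same name deviated together over genes with r of 0.038 (A1), 0.22 (A2), 0.13 (A3) and 0.28 (M2), against -0.31 to 0.21 for other pairs. The labels do not say that arrays of the same name share an experiment. Whether the arrays are paired is therefore not settled, and the main fit left the names out. No log2 fold change of a gene given with its values turned from called to called in the opposite direction, and UCA1 was called under every alternative. UBE2N (adjusted p = 0.0621) and RPA1 (0.0562) missed the threshold only without the detection filter, and RAD51B and UBE2N were not tested when signal above background was required on all 8 arrays. Median scaling moved the median of all genes by 0.096, from 0.030 to -0.065, and that of the repair genes with it, from -0.029 to -0.13. Dim probes (ERCC4, RAD51B, BRCA2 and UBE2N) and the number of arrays limit the precision.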
